A study of Homo sapiens with 8 samples.

Results

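LNCaP cells that were given vesicles from COUP-TFII-depleted donor cells were compared with LNCaP cells given vesicles from donor cells treated with a control siRNA. The comparison rests on 2 of the 8 RNA sequencing libraries of the series, 1 per group, chosen by their labels. Of 57905 genes counted, 8922 had a mean of at least 10 CPM (counts scaled to a library of 1e6 reads) over the 2 libraries and are described as genes above the floor. With 1 library per group there is no test and no p-value, and each log2 ratio is given with an exact binomial 95% interval that covers counting error only.

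LNCaP is an androgen-sensitive human prostate cancer line that responds to enzalutamide, a drug that blocks the androgen receptor. EnzaR is a prostate cancer line resistant to enzalutamide, grown in its presence (10 uM). It was the donor of the extracellular vesicles (EVs), small membrane particles that cells release and that can carry RNA, protein and lipid to other cells. The series holds 4 LNCaP and 4 EnzaR libraries of total RNA. The EV-siCII library is from LNCaP cells that received EVs of EnzaR cells depleted of COUP-TFII, the nuclear receptor encoded by NR2F2. The EV-siNC library is from LNCaP cells that received EVs of EnzaR cells given control siRNA. A further library is from LNCaP cells that received EVs of YAP1-depleted EnzaR cells (EV-siYAP1), and another from LNCaP cells labelled as a vehicle control without EVs (control). LNCaP cells were exposed for 48 h. For EnzaR cells the labels give 40 nM of control or YAP1 siRNA for 48 h, and no separate dose for the siRNA against COUP-TFII. The EnzaR libraries are 2 replicates each of control siRNA (siNC) and of YAP1 siRNA (siYAP1), and their replicate pairs give the only replicate spread in the series, in another line. The labels do not say that these replicates were separate cultures, so this spread may be technical. The labels give neither the amount of EVs nor how many EV preparations were used, so a difference between preparations and one due to COUP-TFII cannot be told apart here. A library of donor cells depleted of COUP-TFII was not analysed here.

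Hypoxia-inducible factors (HIFs) are transcription factors that are degraded when oxygen is plentiful and accumulate when it is scarce. They raise the transcription of glycolytic enzymes, of angiogenic factors such as VEGFA, and of genes that restrain mitochondrial respiration. They bind DNA at hypoxia response elements. COUP-TFII is an orphan member of the nuclear receptor family with roles in vessel development and metabolism.

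All 4 LNCaP libraries had similar depth, with 17543894 to 17964615 counts, and mitochondrially encoded transcripts took 4.76% to 5.37% of them. A count of 3 corresponded to 0.167 to 0.171 CPM. The summed level of 8 luminal prostate markers, KLK3 among them, was 2983 to 3375 CPM in the 4 LNCaP libraries, 3017 in EV-siNC and 3273 in EV-siCII. Basal markers summed to 0.227 to 0.495 CPM and blood markers to 0.283 to 0.549 CPM. KRT5, KRT14, KRT15, KRT6A and TP63 made up the basal list, and 3 of the 5 were at 0 in both libraries compared. Stromal markers summed to 112.1 CPM in EV-siNC and 106.8 CPM in EV-siCII, with 3 of 5 at 0 in both. COL1A1 made up most of this, at 101.2 and 97.6 CPM. VWF, an endothelial marker, had 13.1 and 13.6 CPM, while CDH5, the other endothelial marker matched, was at 0 in both. Markers of other prostate cancer lines summed to 301.2 to 319.8 CPM in the 4 LNCaP libraries. Most of that was VIM, with 291.7 CPM in EV-siNC and 295.4 in EV-siCII.

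The DNA just before the start of several genes described here is shown first. The set holds 6 hypoxia-induced or glycolytic genes that were lower in EV-siCII, ALDOC as a glycolytic gene that barely differed, and MT2A, which was higher. Each run holds the 250 bases before the gene's start, 5′ to 3′ on the gene's own strand, taken from RefSeq (GRCh38.p14). For the first 7, capitals mark every match on either strand to ACGTG, the core of the hypoxia response element. Each of these 7 holds a match, whereas 0 were found before PFKFB4, PFKFB3, ENO1, P4HA2 and STC2. Those genes were also lower in EV-siCII, so the printed set does not stand for all lower genes. Matches on the 2 strands overlap where the letters are CACGTG. BHLHE40 encodes a repressor of the circadian clock that is induced by hypoxia (chr3:4979187-4979436, plus strand). BNIP3 encodes an inducer of mitophagy (chr10:131981924-131982173, minus strand). P4HA1 encodes a collagen prolyl hydroxylase (chr10:73096867-73097116, minus strand). LDHA encodes the lactate dehydrogenase subunit that favours lactate (chr11:18394313-18394562, plus strand). ENO2 encodes an enolase (chr12:6914330-6914579, plus strand), PGK1 phosphoglycerate kinase (chrX:78103998-78104247, plus strand) and ALDOC an aldolase (chr17:28576896-28577145, minus strand). MT2A encodes a metallothionein, a small protein that binds zinc and copper (chr16:56608334-56608583, plus strand). For MT2A, capitals mark matches on either strand to TGCGCNC or TGCACNC, cores of the metal response element.
BHLHE40: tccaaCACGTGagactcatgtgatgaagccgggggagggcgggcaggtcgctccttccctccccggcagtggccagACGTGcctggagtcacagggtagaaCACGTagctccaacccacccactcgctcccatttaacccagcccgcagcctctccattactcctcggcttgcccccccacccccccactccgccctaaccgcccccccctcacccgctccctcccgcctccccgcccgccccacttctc
BNIP3: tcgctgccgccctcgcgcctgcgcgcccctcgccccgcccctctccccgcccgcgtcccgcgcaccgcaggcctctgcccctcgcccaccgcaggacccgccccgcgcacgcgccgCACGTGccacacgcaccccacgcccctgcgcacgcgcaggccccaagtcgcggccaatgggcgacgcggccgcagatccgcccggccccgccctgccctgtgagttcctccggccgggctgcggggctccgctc
P4HA1: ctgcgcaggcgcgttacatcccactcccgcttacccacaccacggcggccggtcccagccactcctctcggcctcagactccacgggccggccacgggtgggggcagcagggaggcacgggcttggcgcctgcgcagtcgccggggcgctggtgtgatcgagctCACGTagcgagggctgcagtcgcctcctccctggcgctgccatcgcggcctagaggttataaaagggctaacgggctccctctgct
LDHA: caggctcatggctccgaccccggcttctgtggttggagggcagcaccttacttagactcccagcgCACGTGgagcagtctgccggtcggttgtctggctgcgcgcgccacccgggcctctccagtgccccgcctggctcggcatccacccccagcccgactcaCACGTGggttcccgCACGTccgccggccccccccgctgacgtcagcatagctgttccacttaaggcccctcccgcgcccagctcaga
ENO2: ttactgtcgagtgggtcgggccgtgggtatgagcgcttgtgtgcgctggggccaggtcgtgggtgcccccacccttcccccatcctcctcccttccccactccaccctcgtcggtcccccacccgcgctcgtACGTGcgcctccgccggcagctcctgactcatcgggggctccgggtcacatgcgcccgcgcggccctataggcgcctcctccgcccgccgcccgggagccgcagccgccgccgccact
PGK1: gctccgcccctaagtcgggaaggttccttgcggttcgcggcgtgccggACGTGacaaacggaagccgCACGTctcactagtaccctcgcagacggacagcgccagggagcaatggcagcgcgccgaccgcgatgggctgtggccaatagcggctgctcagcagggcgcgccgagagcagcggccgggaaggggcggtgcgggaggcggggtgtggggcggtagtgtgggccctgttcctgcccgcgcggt
ALDOC: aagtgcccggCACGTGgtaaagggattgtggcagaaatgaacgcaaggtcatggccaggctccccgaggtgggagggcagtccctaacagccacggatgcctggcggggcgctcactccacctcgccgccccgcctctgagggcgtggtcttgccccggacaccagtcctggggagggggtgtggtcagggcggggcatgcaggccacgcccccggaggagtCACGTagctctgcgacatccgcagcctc
MT2A: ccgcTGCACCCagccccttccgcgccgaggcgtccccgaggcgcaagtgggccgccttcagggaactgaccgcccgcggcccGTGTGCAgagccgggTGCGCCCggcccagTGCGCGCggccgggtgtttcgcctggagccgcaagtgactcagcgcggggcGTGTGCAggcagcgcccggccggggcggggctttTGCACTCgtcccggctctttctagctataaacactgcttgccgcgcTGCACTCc

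ACGTG was matched 4 times before BHLHE40, 2 times before BNIP3, 1 time before P4HA1 and 5 times before LDHA, counting both strands. It was matched 1 time before ENO2, 2 times before PGK1 and 3 times before ALDOC. The first 6 of these genes had lower levels in EV-siCII, while the ratio of ALDOC was -0.11. Of 27305 RefSeq promoters, 18.7% held ACGTG in the same 250 bases, and of 7102 promoters of genes above the floor, 24.5% did. MT2A held 7 matches to the metal response core, a number of at least 6 being found in 0.0845% of the promoters of genes above the floor.

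EV-siCII and EV-siNC differed little over most genes. The log2 ratio of EV-siCII over EV-siNC had a median of 0.0063 and an SD across genes of 0.16, beside SDs of 0.189 and 0.191 between the EnzaR replicates of siNC and of siYAP1. A gene is counted here as called higher or lower where its log2 ratio lay beyond 0.32 in that direction, a ratio of 5 to 4. By this rule 157 genes were called higher (1.76%) and 255 called lower (2.86%) in EV-siCII. That is 4.62% in either direction, fewer than the 9.05% and 8.77% found between replicates of the EnzaR groups. At 1.5-fold the split was uneven, with 5 genes higher (0.056%) and 29 lower (0.325%). At 2-fold 1 gene was higher (0.0112%) and 5 were lower (0.056%), and 1 of these 5 has no gene name. Ratios lay below 0 for 48.2% of genes and above 0 for 51.8%. Of genes between EnzaR replicates, 1% differed by more than 0.54 (siNC) or 0.52 (siYAP1) on the log2 scale, so a ratio near 0.32 in a single gene lies within that spread.

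**Figure D1:**
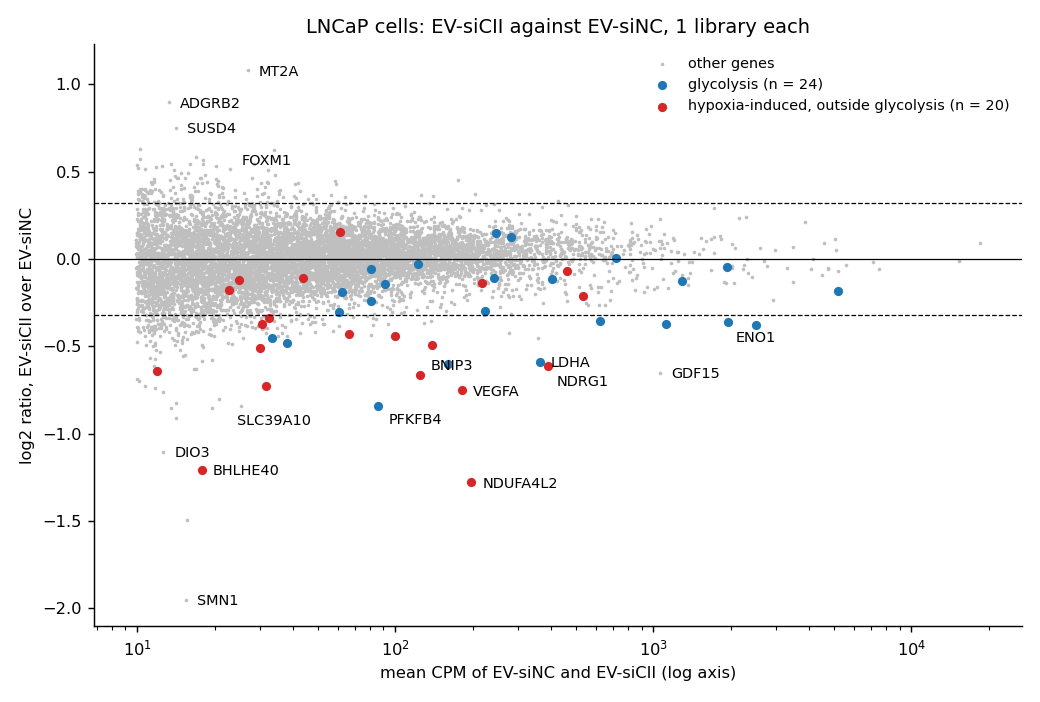
The plot sets the log2 ratio of EV-siCII over EV-siNC (y axis) of 8922 genes against their mean CPM (x axis, log scale), with dashed lines at -0.32 and 0.32. Hypoxia-induced genes (red) and glycolysis genes (blue) lie mostly below 0, with NDUFA4L2 at -1.28 the lowest of them.

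Genes induced by hypoxia, apart from glycolytic enzymes, were lower in EV-siCII as a group. Members of this list, as of the others, were chosen with earlier results of these data known. Counts set beside the background are therefore description only. Of 30 genes in this list, 20 were above the floor, and 13 of those were called lower and 0 higher, against a background of 2.86%. Their median log2 ratio was -0.43, beside 0.0063 for all genes, and 19 of the 20 were below 0, beside 48.2% of all genes. The same 20 genes had medians of -0.05 and 0.09 between the EnzaR replicates. Their median ratio to the LNCaP control was 0.06 in EV-siNC and -0.33 in EV-siCII, comparisons that share the control library, so EV-siNC lay near the level without EVs and EV-siCII below it. In RNA from whole cultures, fewer expressing cells and less RNA per cell cannot be told apart.

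NDUFA4L2, a HIF-induced mitochondrial protein that lowers complex I activity, was at 283.7 CPM in the control, 279.6 in EV-siNC, 156.5 in EV-siYAP1 and 115.2 in EV-siCII. The EV-siCII library was the lowest of the 4, and its log2 ratio to EV-siNC was -1.28 (interval -1.35 to -1.21). Between EnzaR replicates the same gene differed by 0.46 and -0.26. In the deposited table (hg19) NDUFA4L2 lies at chr12:57628686-57634498, BHLHE40 at chr3:5020801-5027008 and VEGFA at chr6:43737921-43754224. BHLHE40, whose promoter is printed above, was at 30.9 CPM in the control, 24.8 in EV-siNC, 14.7 in EV-siYAP1 and 10.7 in EV-siCII. Here too the 2 EV libraries from depleted donors were lower than both others, and the log2 ratio was -1.21 (interval -1.47 to -0.97), against replicate differences of 0.09 and 0.07.

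VEGFA, the main vascular endothelial growth factor, was at 209.3 CPM in the control, 228.5 in EV-siNC, 158.3 in EV-siYAP1 and 135.7 in EV-siCII. Its log2 ratio was -0.75 (interval -0.82 to -0.68), and the level in EV-siCII was the lowest of the 4. BNIP3 had 147.8, 152.4, 111.5 and 96.1 CPM in the same order, and its relative BNIP3L, which also targets mitochondria for autophagy, had 91.4, 115.3, 100.9 and 84.96 CPM. Their log2 ratios were -0.67 (interval -0.75 to -0.58) and -0.44 (interval -0.54 to -0.34). NDRG1, a stress-responsive gene that androgen also raises, was at 479.1 CPM in the control, 472.6 in EV-siNC, 347.7 in EV-siYAP1 and 308.5 in EV-siCII. Its log2 ratio was -0.61 (interval -0.66 to -0.57). NDRG1 was the only one of 17 androgen-responsive genes above the floor that was called lower, against a background of 2.86%.

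Collagen prolyl hydroxylases, which stabilise the collagen helix and are induced by hypoxia, were lower as well. P4HA1 was at 30.7 CPM in the control, 39.4 in EV-siNC, 28.4 in EV-siYAP1 and 23.7 in EV-siCII, and P4HA2 at 36.2, 34.5, 33.4 and 26.7 CPM. EV-siCII was the lowest library for both, with log2 ratios of -0.73 (interval -0.91 to -0.56) for P4HA1 and -0.37 (interval -0.55 to -0.20) for P4HA2. P4HA1 was higher in EV-siNC than in the control, by 0.36 on the log2 scale, whereas P4HA2 was not.

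The other members called lower were INSIG2 (-0.64), which retains the sterol sensor SCAP in the endoplasmic reticulum, HILPDA (-0.51), an inhibitor of lipid droplet lipolysis, STC2 (-0.49), a secreted glycoprotein, FAM162A (-0.43) and WSB1 (-0.34). DDIT4, an inhibitor of mTORC1, was at -0.21, with 571.1 CPM in EV-siNC and 492.3 in EV-siCII. CA12, a carbonic anhydrase, was the only member above 0, at 0.15 (interval 0.03 to 0.27). The histone demethylases KDM3A and KDM4B were at -0.18 and -0.14.

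Below the floor, 8 of the other 10 members had a lower level in EV-siCII and 2, ADM and ANGPTL4, a higher one. ERO1A, an oxidase that supports disulfide formation, had 209 counts in EV-siNC and 120 in EV-siCII, and ANKRD37 had 210 and 146. CA9, a carbonic anhydrase used as a marker of hypoxia, had 20 counts in EV-siNC and 7 in EV-siCII, and LOX and PLIN2 had fewer than these, so a ratio for these 3 rests on few counts.

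**Figure D2:**
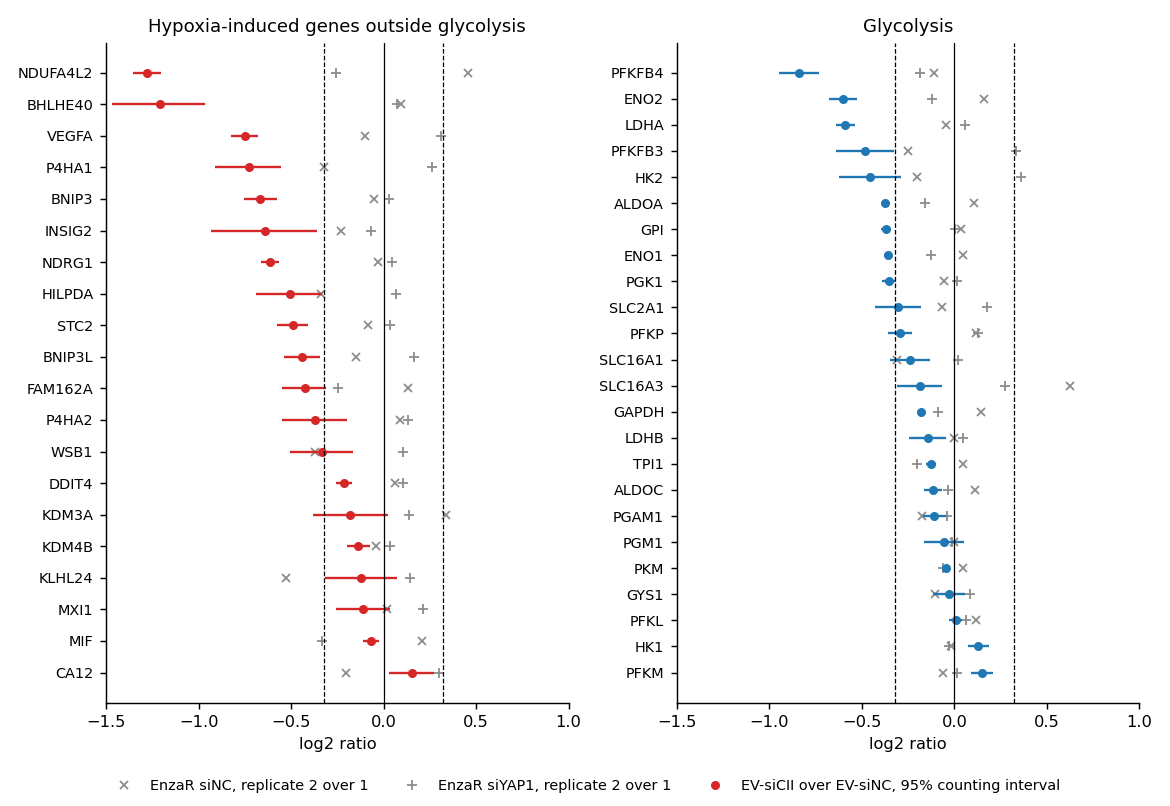
Log2 ratios of EV-siCII over EV-siNC (x axis, coloured points with 95% counting intervals) are plotted for the 20 hypoxia-induced and 24 glycolysis genes above the floor, with the ratios between EnzaR replicates as grey crosses and dashed lines at -0.32 and 0.32. All but 4 of the coloured points lie below 0, and the grey crosses lie on both sides of it.

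Glycolysis genes were lower by less. The list covers glucose and lactate transport, the pathway's enzymes and its regulators, and 24 of its 26 genes were above the floor. Of these, 9 were called lower and 0 higher, and 21 were below 0, beside 2.86% and 48.2% of all genes, with a median log2 ratio of -0.21. Between EnzaR replicates their medians were -0.0031 and 0.0078. To the control the median ratio was -0.13 in EV-siNC and -0.33 in EV-siCII, comparisons that share the control library.

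Among the regulators, PFKFB4, which sets the level of the glycolytic activator fructose-2,6-bisphosphate, was at 101.1 CPM in the control, 109.6 in EV-siNC, 68.8 in EV-siYAP1 and 61.2 in EV-siCII. Its log2 ratio of -0.84 (interval -0.95 to -0.73) was the lowest of the list, and the gene lies at chr3:48555117-48599448 (hg19). PFKFB3, a second enzyme of this kind, was at 52.5, 44.5, 38.0 and 31.8 CPM in the same order, with a log2 ratio of -0.48 (interval -0.64 to -0.33). The control was the highest library for PFKFB3, and EV-siNC for PFKFB4.

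Along the pathway itself, HK2, the inducible hexokinase, had a log2 ratio of -0.45 (interval -0.62 to -0.29), while HK1, the form made in most tissues, was at 0.13 (interval 0.08 to 0.19). GPI, ALDOA, PGK1 and ENO1 were at -0.37, -0.38, -0.36 and -0.36, each just past the limit for a call, with narrow intervals because they are abundant. ENO1, the main enolase, was at 2508 CPM in the control, 2191 in EV-siNC, 1535 in EV-siYAP1 and 1706 in EV-siCII. For this enzyme EV-siNC was below the control, and EV-siYAP1, not EV-siCII, was the lowest library.

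LDHA was at 449.3 CPM in the control, 436.6 in EV-siNC, 270.0 in EV-siYAP1 and 290.0 in EV-siCII, a log2 ratio of -0.59 (interval -0.64 to -0.54). ENO2 was at 170.4, 193.1, 159.4 and 127.3 CPM, a log2 ratio of -0.60 (interval -0.68 to -0.52). Both libraries from depleted donors were below the control and EV-siNC for these genes. The glucose transporter SLC2A1 was at -0.30 and GAPDH at -0.18, both short of a call. PKM, the pyruvate kinase of proliferating cells, was at -0.04, PFKL at 0.01 and PFKM at 0.15, so the phosphofructokinase subunits of liver and muscle type were not lower. The platelet-type subunit PFKP was at -0.30.

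**Figure D3:**
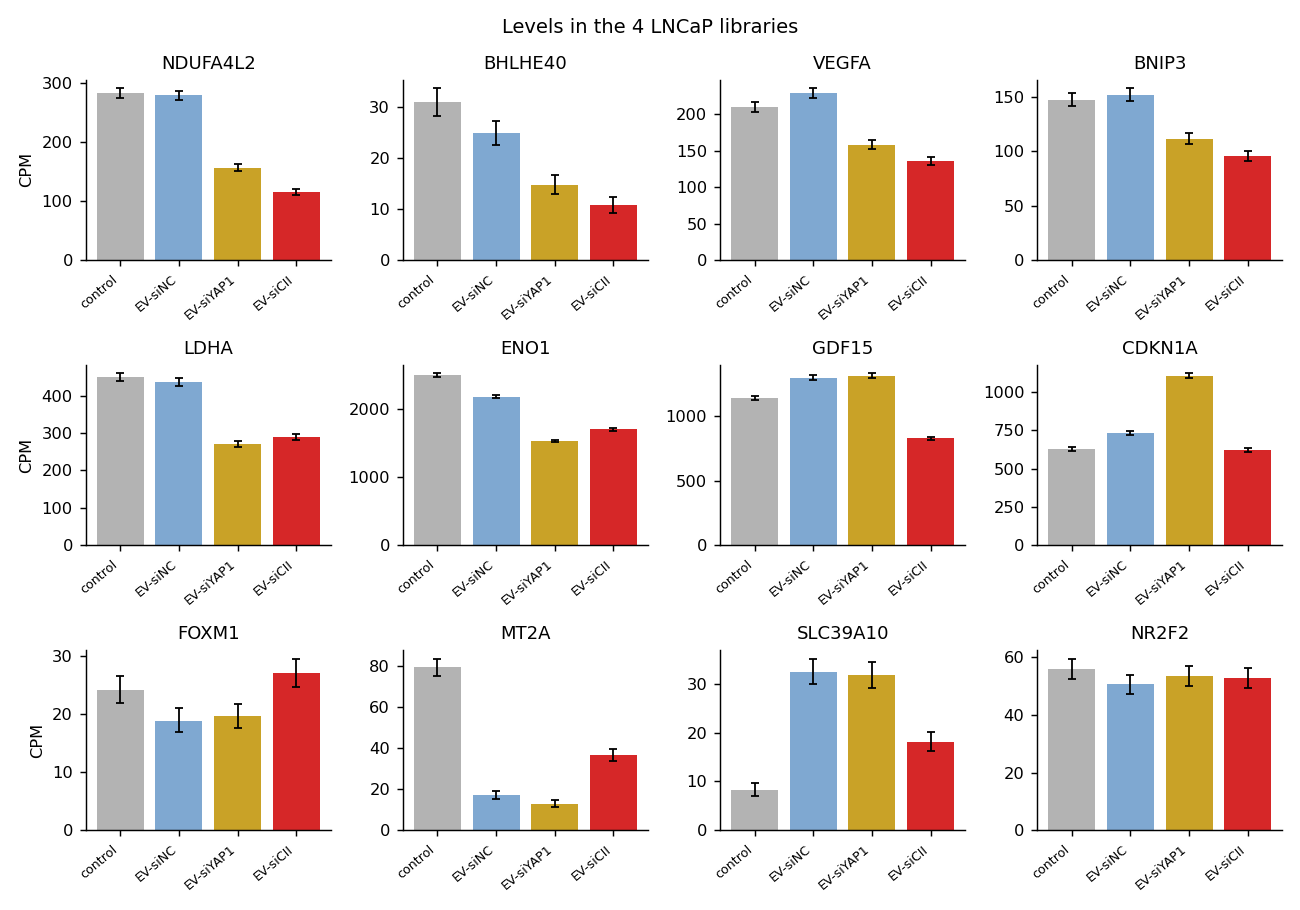
Bars show TMM-scaled CPM (y axis, from 0) of 12 genes in the 4 LNCaP libraries, 1 library per bar, with exact 95% Poisson limits for counting error. NDUFA4L2, BHLHE40, VEGFA and BNIP3 are lowest in EV-siCII, LDHA and ENO1 in EV-siYAP1, and MT2A and SLC39A10 in EV-siCII lie between control and EV-siNC.

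Of the promoters of the hypoxia and glycolysis genes above the floor, RefSeq entries were matched for 38, and 16 held ACGTG (42.1%, beside 24.5% for all genes above the floor). Of 17 promoters whose genes were called lower, 12 held it, and of 21 whose genes were not, 4 did. This is a description of letters in 250 bases and no evidence of binding.

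Both lists together hold 44 genes above the floor, of which 22 were called lower, beside 2.86% of all genes. The lists held 0.493% of all genes above the floor and 8.63% of the 255 lower genes. Because members were chosen with earlier results of these data known, these shares are description only. Outside the lists, further genes known to be induced by hypoxia were among the 12 named genes with the largest ratios below 0. They were picked from the low end of the same ratios, so they too are description only. FUT11, a fucosyltransferase, was at 21.3 CPM in the control, 25.1 in EV-siNC, 17.2 in EV-siYAP1 and 13.8 in EV-siCII, a log2 ratio of -0.85 (interval -1.09 to -0.63). MIR210HG, the host transcript of the hypoxia-induced microRNA miR-210, was at 15.97, 17.5, 14.7 and 9.63 CPM, a log2 ratio of -0.85 (interval -1.14 to -0.59). EV-siCII was the lowest library for both, but MIR210HG differed by 0.62 and -0.35 between EnzaR replicates. APLN, which encodes the vascular peptide apelin, was at -0.82 (interval -1.10 to -0.56), with 18.1 CPM in EV-siNC and 10.2 in EV-siCII.

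The HIF regulator list holds 9 genes that encode the oxygen-sensing machinery itself, all above the floor. Of these, 0 were called either way, beside 4.62% of all genes, and in so short a list that lies near the share of all genes. Counting intervals lay wholly below 0 for 2 of the 9 and wholly above 0 for 1. The list's median was -0.01, and 0.02 after correction for GC content and length. HIF1A was at 32.9 CPM in the control, 44.9 in EV-siNC, 43.1 in EV-siYAP1 and 37.5 in EV-siCII, a log2 ratio of -0.26 (interval -0.41 to -0.11), against replicate differences of 0.26 and 0.27. The control was thus the lowest library for HIF1A, as it was for CA12, whereas EV-siCII was the lowest for NDUFA4L2, BHLHE40, VEGFA and BNIP3. HIF activity is set mainly by protein stability, which RNA counts do not measure. EPAS1, which encodes HIF-2 alpha, was at 0.08, ARNT, the shared partner subunit, at 0.16, and VHL, which marks HIF for degradation, at -0.15. The remaining members were EGLN3 at 0.095, HIF1AN at 0.03, CITED2 at -0.01, EGLN1 at -0.04 and EGLN2 at -0.05.

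NR2F2 itself, the gene depleted in the donor cells and not in these recipients, was at 55.8 CPM in the control, 50.5 in EV-siNC, 53.3 in EV-siYAP1 and 52.7 in EV-siCII. The 4 libraries were close, and the log2 ratio of EV-siCII over EV-siNC was 0.06 (interval -0.07 to 0.19). YAP1 was at -0.01 (interval -0.13 to 0.10). MPC1, a subunit of the mitochondrial pyruvate carrier that COUP-TFII is known to repress, was below the floor at 0.18 (interval -0.23 to 0.60). Of 18 genes linked to COUP-TFII, 6 were above the floor, with a median of 0.16, beside 0.0063 for all genes. Of these, 1 was called higher and 0 lower, beside 1.76% and 2.86% of all genes. The 1 called was FOXM1, which is also in the mitosis list. NRP1, a VEGF co-receptor, was at 0.23 (interval 0.15 to 0.31).

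Targets of p53, the stress-activated tumour suppressor, mostly had log2 ratios slightly below 0. Of 26 genes, 24 were above the floor, 23 of these were below 0, and 4 were called lower, beside 48.2% and 2.86% of all genes, with a median of -0.17. GDF15, a secreted stress cytokine, was at 1144 CPM in the control, 1299 in EV-siNC, 1314 in EV-siYAP1 and 826.9 in EV-siCII, a log2 ratio of -0.65 (interval -0.68 to -0.62). Here EV-siCII alone was below the control (chr19:18485541-18499986, hg19). MDM2, the ubiquitin ligase that degrades p53, was at 39.5, 59.7, 64.6 and 46.1 CPM, a log2 ratio of -0.37 (interval -0.51 to -0.24). EV-siNC and EV-siYAP1 were above the control for MDM2, and EV-siCII lay between. CDKN1A, the cyclin-dependent kinase inhibitor p21, was at 628.2, 732.1, 1107 and 620.9 CPM, a log2 ratio of -0.24 (interval -0.27 to -0.20). PLK3 was at -0.74, AEN at -0.34 and BAX, a mediator of apoptosis, at -0.30. The list's median ratio to the control was 0.17 in EV-siNC and -0.02 in EV-siCII, comparisons that share the control library.

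In the integrated stress response, ATF4 raises amino acid synthesis and transport genes. All 27 genes of the list were above the floor, with a median of -0.16. Of these, 21 were below 0 and 3 called lower, beside 48.2% and 2.86% of all genes, and 6 were above 0. STC2 and DDIT4 are also in the hypoxia list. Without these, 25 genes had a median of -0.14, and 2 were lower, ATF3 at -0.37 and DDIT3 at -0.33, both stress-induced transcription factors. ATF4 itself was at -0.13. Chaperones of the endoplasmic reticulum had a median on the other side of 0, at 0.12, with 14 of 20 above 0, beside 51.8% of all genes. Of these, 0 were called in either direction, beside 4.62% of all genes. HSPA5, the main such chaperone, was at 0.23 (interval 0.19 to 0.27) and CALR at 0.24 (interval 0.22 to 0.26).

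Most genes of cell division were rare transcripts. Of 30 mitotic genes, 8 were above the floor. These 8 were above 0, as were 51.8% of all genes, with a median of 0.28 and 4 intervals that spanned 0, and 3 were called higher and 0 lower, against a background of 1.76%. FOXM1, the transcription factor that drives mitotic genes, was at 24.2 CPM in the control, 18.9 in EV-siNC, 19.6 in EV-siYAP1 and 27.1 in EV-siCII, a log2 ratio of 0.52 (interval 0.32 to 0.72). PLK1, a mitotic kinase, was at 19.4, 13.1, 10.2 and 17.4 CPM, a log2 ratio of 0.41 (interval 0.16 to 0.66). Both were higher in the control and in EV-siCII than in the other 2 libraries. BIRC5, an inhibitor of apoptosis that acts in mitosis, was at 0.39 (interval 0.08 to 0.70).

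Of 17 DNA replication genes above the floor, 9 were above 0 and 8 below, a split near the 51.8% and 48.2% of all genes. Their median was 0.10, and 0.00016 with a floor of 5 CPM. Of the 17, 1 was called higher, against a background of 1.76%. The gene called was TK1, a thymidine kinase of S phase. TK1 was at 51.0 CPM in the control, 34.9 in EV-siNC, 25.99 in EV-siYAP1 and 47.1 in EV-siCII, a log2 ratio of 0.43 (interval 0.28 to 0.58). To the control, mitotic genes had a median ratio of -0.26 in EV-siNC and -0.02 in EV-siCII, and replication genes of -0.22 and -0.05, comparisons that share the control library. For all genes above the floor these medians were -0.04 and -0.02. By its median, each list was thus nearer to the level without EVs in EV-siCII.

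The metal-handling genes held members at both ends of the comparison. MT2A was at 79.2 CPM in the control, 17.2 in EV-siNC, 13.0 in EV-siYAP1 and 36.5 in EV-siCII, a log2 ratio of 1.08 (interval 0.89 to 1.28), the highest of any named gene above the floor. MT1G, a second metallothionein and below the floor, had 20.1, 4.29, 2.64 and 9.52 CPM and a log2 ratio of 1.13 (interval 0.75 to 1.56). For both, the control was highest, EV-siYAP1 lowest and EV-siCII intermediate. MT1F was at 0.71 and MT1X at 0.26 (interval -0.15 to 0.68). Metallothionein genes are close copies of each other, so counts may be split between them.

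SLC39A10, which imports zinc into the cell, had 8.25 CPM in the control, 32.4 in EV-siNC, 31.8 in EV-siYAP1 and 18.1 in EV-siCII, a log2 ratio of -0.84 (interval -1.05 to -0.64). The control was lowest here and highest for MT2A, and EV-siCII lay between the control and the other 2 EV libraries for both. SLC39A10 lies at chr2:196440701-196602426 and MT2A at chr16:56642111-56643409 (hg19). Between EnzaR replicates SLC39A10 differed by 0.11 and 0.60, and MT2A by 0.07 and -0.14. MTF1, the factor that senses zinc and activates metallothionein genes, was at -0.24 (interval -0.44 to -0.04). Of the 9 genes in this list above the floor, only MT2A and SLC39A10 were called, beside 4.62% of all genes.

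**Figure D4:**
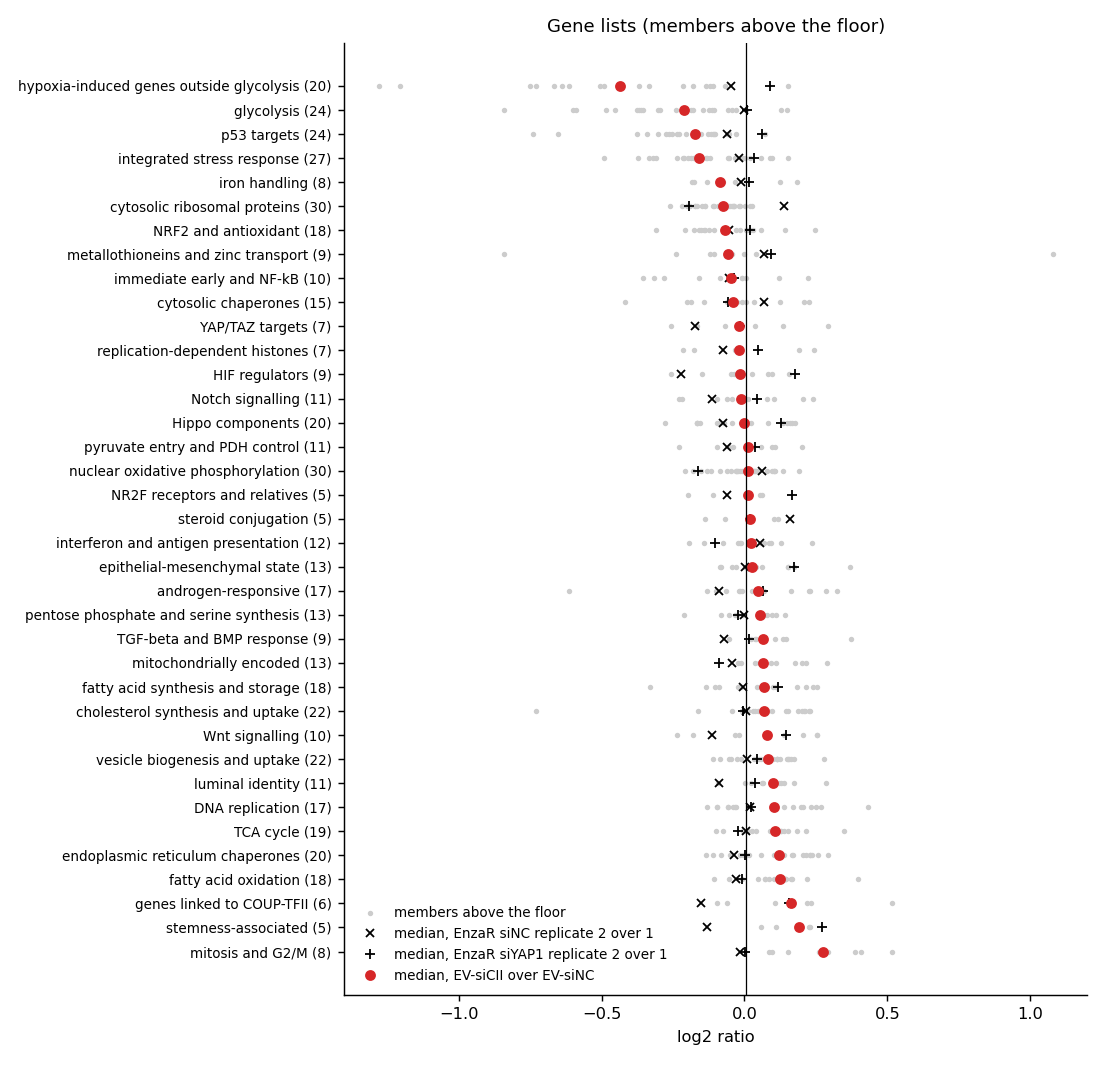
Red points give the median log2 ratio of EV-siCII over EV-siNC (x axis) for each gene list with at least 5 members above the floor, grey dots the members, and black crosses the list's median between EnzaR replicates. The hypoxia list at -0.43 and the mitosis list at 0.28 lie at the ends.

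Lipid and respiratory genes had medians near that of all genes or slightly above it. The TCA cycle list had a median of 0.11, with 15 of 19 above 0, beside 51.8% of all genes. FH, fumarate hydratase, was its only gene called higher, at 0.35 (interval 0.20 to 0.50), against a background of 1.76%. The fatty acid oxidation list had a median of 0.12, with PPARA, a nuclear receptor that promotes it, at 0.40 (interval 0.13 to 0.67). The 30 nuclear genes of oxidative phosphorylation had a median of 0.01 and the 13 mitochondrially encoded genes of 0.07. None was called in either list, beside 4.62% of all genes. Cholesterol synthesis and uptake genes had a median of 0.07, with 17 of 22 above 0, beside 51.8% of all genes. CYP51A1, a demethylase of that pathway, was the exception at -0.73 (interval -1.05 to -0.43), with 13.4 CPM in EV-siNC and 8.04 in EV-siCII.

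Androgen-responsive genes had a median of 0.05. SLC45A3, which encodes the luminal marker prostein, was called higher at 0.32 (interval 0.24 to 0.41), only just past the limit for a call. It was the 1 called higher of 17 such genes above the floor, beside 1.76% of all genes. Targets of YAP and TAZ had a median of -0.02, and the Hippo components of -0.0011, with 0 called in both, beside 4.62% of all genes. Both signs turned with TMM factors over all 8 libraries, which change the genes above the floor and not their ratios. The YAP and TAZ median was also above 0 with a floor of 5 CPM (0.036) and with no filter (0.086). For the Hippo components it was 0.014 with the GC and length correction and 0.0088 with no filter. The ribosomal protein list had 27 of 30 genes below 0, beside 48.2% of all genes, with a median of -0.08. Its medians between EnzaR replicates were larger, at 0.14 and -0.19.

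The largest ratio of any gene above the floor belonged to SMN1, the survival motor neuron gene, at 4.91 CPM in the control, 24.6 in EV-siNC, 9.73 in EV-siYAP1 and 6.29 in EV-siCII, a log2 ratio of -1.95 (interval -2.28 to -1.67). EV-siNC stood above the other 3 libraries. SMN2 is a near-identical copy and had 5.28 CPM in EV-siNC and 6.34 in EV-siCII, so the split of reads between the copies is uncertain (SMN1 at chr5:70220768-70249769, hg19). Summed over both genes there were 544 counts in EV-siNC and 223 in EV-siCII, but also 152 in the control. DIO3, a deiodinase that inactivates thyroid hormone, was at 19.8, 17.3, 7.99 and 7.99 CPM in the usual order, a log2 ratio of -1.11 (interval -1.41 to -0.82). The EV libraries of both depleted donors were lower than the other 2 for DIO3. KHDC4 was at -0.80 (interval -1.03 to -0.59), and NOS3, the endothelial nitric oxide synthase, at -0.76 (interval -1.05 to -0.49).

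On the higher side, ADGRB2, an adhesion receptor, was at 12.7 CPM in the control, 9.29 in EV-siNC, 9.79 in EV-siYAP1 and 17.4 in EV-siCII, a log2 ratio of 0.90 (interval 0.63 to 1.18). SUSD4, a regulator of complement, was at 13.6, 10.5, 15.9 and 17.7 CPM, a log2 ratio of 0.75 (interval 0.49 to 1.02). EV-siCII was the highest of the 4 libraries for both. IL1RN, the interleukin-1 receptor antagonist, was at 0.57 (interval 0.34 to 0.80), with 21.4 CPM in the control, 14.5 in EV-siNC and 21.5 in EV-siCII. The other named genes that were higher were ATAD1, TMEM238, DNAH2, SHPK, DHRS4L2, NEURL1B, LRIG2 and TNNT1, with log2 ratios of 0.54 to 0.63. TMEM238 differed by -1.35 between the siNC replicates of EnzaR, and TNNT1 by 1.00 and -1.12 between the replicates of siNC and siYAP1, more than between EV-siCII and EV-siNC. DHRS4L2 is a close copy of DHRS4, which was at -0.04.

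The EV-siYAP1 library shares EV-siNC as its comparator, so its ratios are not independent of those of EV-siCII, and they are given side by side only. The hypoxia list had a median ratio to EV-siNC of -0.43 in EV-siCII and -0.18 in EV-siYAP1, and the glycolysis list of -0.21 and -0.28. Targets of p53 had -0.17 in EV-siCII and 0.13 in EV-siYAP1, and the mitosis list 0.28 and -0.18. Whether the 2 kinds of EVs differ in these lists was not tested, with 1 library each.

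RNA that EVs carry into LNCaP cells could be counted with that of the recipients, so genes of the donor line were followed. A set of 50 genes had at least 10 CPM in EnzaR siNC cells and at most 1 CPM in the LNCaP control. Their summed level was 31.4 CPM in the control, 39.0 in EV-siNC, 35.7 in EV-siYAP1 and 43.4 in EV-siCII. The 3 EV libraries were above the control, which the choice of genes low in the control favours, and the part of this in any result above was not tested.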

How the data were processed

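Total RNA of 4 LNCaP and 4 EnzaR libraries was sequenced, and the labels gave each group. The authors deposited a table of raw read counts per Ensembl gene, with FPKM beside them. Per the submitters' processing notes, the tools were DESeq2, HTSeq 0.6.1, HISAT2 2.0.1 and cutadapt 1.9.1 and the build hg19 (GRCh37), the roles being unstated. Neither the annotation release nor the strand setting is given in the sources used here, and overlapping or antisense genes may share reads. The deposited FPKM matched the count over exonic length and library total (463240 values, tolerance 0.0051) and served only as an alternative. Symbols were matched by identifier for 39538 genes, holding 98.96% of counts, and 0 rows named no gene. Of 804 list entries in 41 lists, 793 matched.

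Log2 ratios are of TMM-scaled CPM (edgeR 4.0.16, R 4.3.3; factors over the 2 libraries compared) with a prior count of 2. Levels are CPM scaled over the 4 LNCaP libraries. Intervals are exact Clopper-Pearson limits at 95% and cover counting error only. The floor was a mean of 10 CPM over both libraries. The ratio and interval computation was tested on simulated counts that held counting error only, so that test does not cover further spread between libraries. The chi-square per degree of freedom between EV-siNC and EV-siCII counts was 5.03, beside 6.89 and 8.11 between EnzaR replicates, so neither was a copy. Motifs were searched in the first RefSeq promoter entry of each gene, and LDHA has a second entry.

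Named genes are NR2F2, YAP1 and MPC1, then the 12 largest ratios per direction among genes with a symbol, above the floor and with an interval excluding 0, without Y-linked genes, and up to 8 members of each list with the largest absolute ratio. Identifiers without a symbol among the called genes numbered 5 higher and 7 lower. Further list members, and genes below the floor, were named after their values were seen. The members and lists were chosen with earlier results of these data known. Alternatives were other scalings (library totals, DESeq2 1.42.0 size factors, TMM over 8 libraries), floors, prior counts and folds, FPKM, and a smooth GC and length correction (mgcv 1.9.3).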

Additional observations from a re-analysis of the deposited data

How the results depend on the processing

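Of 735 values recomputed under the alternatives, 719 moved by less than their limit and 16 by more, and 0 values past the call limit changed sign. Part of these could not move, because a change of floor leaves the ratio of a single gene as it was. TMM factors over all 8 libraries likewise left the ratios of single genes unchanged. Among the 719 are all 268 single-gene values, and the DNA replication median that went from 0.10 to 0.00016. The number unmoved is thus no measure of how stable the results are. Of the 719, 16 changed sign, 15 of them medians of 7 lists and the other the ratio of YAP1. They had been within 0.023 of 0 and lay between -0.10 and 0.086 under the alternative. The count of genes past the fold depends on the fold and the floor. Genes higher in EV-siCII numbered 157 beyond a log2 ratio of 0.32, 5 at 1.5-fold and 1 at 2-fold. They numbered 63 with a floor of 20 CPM, 368 with 5 CPM and 5377 with no filter. Genes lower numbered 255 beyond a log2 ratio of 0.32, 29 at 1.5-fold and 5 at 2-fold. They numbered 103 with a floor of 20 CPM, 497 with 5 CPM and 5793 with no filter, where most genes have few counts. The 13 lower hypoxia genes became 7 at 1.5-fold, 2 at 2-fold and 21 with no filter, and the 9 glycolysis genes became 3 at 1.5-fold and 0 at 2-fold. The median of mitochondrially encoded genes was 0.12 with the correction for GC content and length. Over all alternatives, medians ran from -0.47 to -0.38 for hypoxia genes, -0.27 to -0.21 for glycolysis, -0.18 to -0.15 for p53 targets, -0.17 to -0.14 for the integrated stress response, 0.27 to 0.34 for mitosis and 0.00016 to 0.15 for DNA replication, the lowest with a floor of 5 CPM. Across 8822 genes, ratios and transcript GC content correlated weakly (Spearman's rho 0.199), as a description over genes of the same libraries. Genes below about 10 CPM have wide counting intervals, and without replicate libraries the spread between LNCaP cultures is unknown. No paired analysis was possible because each LNCaP group has 1 library and the result comes from no test.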

Other observations

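Rarer transcripts, of 1 to 10 CPM on average over both libraries, held further genes far apart between EV-siNC and EV-siCII. Of 5504 such genes, 38 (0.69%) had a counting interval wholly beyond 1.5-fold, 17 higher and 21 lower in EV-siCII, and those named here were chosen after their values were seen. PLOD2, a hypoxia-induced lysyl hydroxylase that modifies collagen, was at 6.03 CPM in the control, 8.85 in EV-siNC, 5.06 in EV-siYAP1 and 2.32 in EV-siCII, a log2 ratio of -1.88 (interval -2.46 to -1.43). SCNN1G, which encodes a sodium channel subunit of epithelia, was at 11.9, 14.7, 6.13 and 4.13 CPM, a log2 ratio of -1.80 (interval -2.22 to -1.45), but differed by 1.46 and 0.89 between EnzaR replicates. PTPRN, a protein of secretory granules, had 89 counts in EV-siNC and 30 in EV-siCII, and AKAP12, a kinase anchor protein, had 103 and 46. Between EnzaR replicates PTPRN differed by -0.58 and -1.04, and AKAP12 by 0.00 and 0.96.

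KRT7, a keratin listed here as a marker of other prostate cancer lines, had 0 counts in EV-siNC and 36 in EV-siCII, with 0.585 CPM in the control and 0.731 in EV-siYAP1. Of the other markers on that list, VIM had 291.7 and 295.4 CPM in EV-siNC and EV-siCII, EPHA2 had 19.5 and 22.3, AXL 0.055 and 0.113, and CAV1 0 and 0.057. Their part in the KRT7 counts was not tested. NFATC2, a calcium-regulated transcription factor, had 80 counts in EV-siNC and 160 in EV-siCII, CORO1A, an actin-binding protein, 45 and 115, and AMPD3, an AMP deaminase, 35 and 87. ZNF367 had 5 and 33 counts. NFATC2 differed by -1.5 and -1.13 between EnzaR replicates, and AMPD3 by -0.999 and -1.09, beside 1.03 and 1.31 between the LNCaP libraries. For PLOD2 and SCNN1G the EV-siCII library was the lowest of the 4, and for NFATC2 and CORO1A the highest.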
